A study of Mus musculus with 26 samples.

Results

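The MHC class II presentation genes were described in tumors grown under the skin from Panc02 cells, a pancreatic ductal adenocarcinoma line of the mouse. The 9 genes were chosen by symbol as the class II chain genes H2-Aa, H2-Ab1 and H2-Eb1, the peptide-loading genes H2-DMa, H2-DMb1, H2-Oa, H2-Ob and Cd74, and the coactivator gene Ciita. Of these, 8 were measured among 19505 named genes, each by 1 probe set of a Clariom S array. Cd74, the invariant chain, had no probe set with that name and was not analysed here.

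Expression was measured in 26 tumors of male C57BL/6 mice that were 6 to 8 weeks old at purchase and were fed an AIN-93G diet. The 6 control tumors came from mice without HMB and without anti-PD1. The 7 HMB tumors came from mice fed HMB, β-hydroxy-β-methylbutyrate, a leucine metabolite, as 1% of the diet from 1 week before the tumor cells were injected. The 6 anti-PD1 tumors came from mice given 200 µg of an antibody against PD-1, an inhibitory receptor of T cells, every 3 days from 2 weeks after injection. The 7 anti-PD1 + HMB tumors received both, and per the methods mice without anti-PD1 received an isotype control antibody. The labels give 200000 injected cells per mouse and the methods give 250000. The group sizes follow the sample labels and differ from those in the design text. Panc02 is 1 cell line, so the groups differ in their hosts and not in the tumor cells injected.

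MHC class II molecules are pairs of an alpha and a beta chain that carry peptides from the endosome to the cell surface, where CD4+ T cells read them. The invariant chain holds the groove until H2-DM, itself a heterodimer, exchanges its last fragment for a peptide, and H2-DO restrains H2-DM, chiefly in B cells. Ciita, the class II transactivator, does not bind DNA but docks on a platform of RFX, CREB and NF-Y at the promoters of these genes. Macrophages, dendritic cells and B cells are the usual class II-expressing cells of a tumor, and interferon-gamma induces Ciita in many others. Mice of the C57BL/6 strain lack a functional H2-Ea gene, so they transcribe H2-Eb1 without placing the I-E molecule on the surface.

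Every value below is a processed array value on a log scale, with base 2 assumed. The array medians lay between 6.97 and 7.11. The 95th percentile of the negative-control probe sets was 10.9 to 11.3 per array and is used as the background level. Between 3772 and 4489 genes per array exceeded it. RNA came from whole tumors, so fewer cells of a type and less RNA per cell cannot be told apart. Macrophage genes marked the tissue most plainly among the class II-expressing cells, with 9 of 11 measured genes above background on average in every group, Cd163 being above it in no tumor. Of the 8 measured epithelial genes, 2 to 4 were above background on average, depending on the group, and Cldn4 and Esrp1 were above it in no tumor.

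The promoter letters of the class II genes are shown because H2-Aa, H2-Eb1 and H2-DMb1 hold the same pair of motifs as the H2-DO genes. The first 3 varied together across tumors, and the H2-DO genes followed them less closely. RefSeq windows of the GRCm38.p6 build, reaching from 250 bases before to 50 bases after a transcript start, were listed for 6 of the 8 measured genes, in 7 windows. H2-Ab1 and Ciita were not among them. The windows were searched on both strands for GNAAC, the core of the X box that RFX binds, followed at 15 to 45 bases between starts by TGATTGG, the Y box of NF-Y. Capitals mark these letters, and each stretch is given 5′ to 3′ on the strand of the gene.
H2-Aa, chr17:34287857-34287918, minus strand: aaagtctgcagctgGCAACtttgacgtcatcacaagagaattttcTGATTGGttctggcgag
H2-Eb1, chr17:34305762-34305822, plus strand: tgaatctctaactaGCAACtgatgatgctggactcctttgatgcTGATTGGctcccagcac
H2-DMb1, chr17:34153083-34153144, plus strand: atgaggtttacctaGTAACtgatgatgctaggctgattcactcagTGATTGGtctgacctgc
H2-Oa, chr17:34092289-34092350, plus strand: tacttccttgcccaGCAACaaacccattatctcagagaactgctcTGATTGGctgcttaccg
H2-Ob, chr17:34238804-34238862, plus strand: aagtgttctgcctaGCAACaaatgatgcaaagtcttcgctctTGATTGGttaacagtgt
The pair of motifs was found in the promoters of 5 genes and in 272 of 32851 windows of the same length (0.828%). In these 5 promoters the starts of the motifs were 28 to 31 bases apart, and TGATTGG began 45 to 63 bases before the transcript start. TGATTGG alone was present in 7.82% of all windows and GNAAC in 84.8%, and the GNAAC letters do not overlap TGATTGG. Both windows of H2-DMa held GNAAC and neither held TGATTGG. The letters were chosen after these windows had been looked at, and a match is a description of the sequence.

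The class II chain genes were far above background in every tumor. H2-Aa, the alpha chain of I-A, was between 16.26 and 17.61 in the control tumors (median 17.07). In the HMB tumors H2-Aa was between 14.32 and 17.62 (median 16.11). The HMB tumors therefore spanned the whole control range and extended below it, with 5 of 7 lower than the lowest control tumor. H2-Aa was between 16.80 and 18.16 in the anti-PD1 tumors (median 17.07). In the anti-PD1 + HMB tumors it was between 16.35 and 17.96 (median 17.63). All 7 of the latter lay above the mean of the HMB group, and the ranges of the groups overlapped.

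H2-Ab1, the partner chain of H2-Aa, was between 15.15 and 16.32 in control tumors (median 16.18). It was between 13.93 and 16.46 in HMB tumors (median 15.54), where 2 of 7 were below every control tumor. It reached from 15.56 to 16.96 with anti-PD1 (median 16.12) and from 15.65 to 17.00 with anti-PD1 + HMB (median 16.72). The means of control and HMB tumors were 0.65 apart for H2-Ab1 and 0.98 for H2-Aa.

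H2-Eb1, the beta chain of I-E, was between 15.35 and 16.58 in control tumors (median 16.08). It was between 13.58 and 16.44 in HMB tumors (median 15.40). It reached from 16.01 to 17.07 with anti-PD1 (median 16.38), and 6 of 7 HMB tumors lay below the lowest of these. With anti-PD1 + HMB it was between 15.45 and 17.15 (median 16.51). Its alpha partner, H2-Ea, had no named probe set.

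The H2-DM genes, whose product loads peptide, followed the chain genes. H2-DMb1, the beta chain, was above background in all 26 tumors, at 14.16 to 15.84 in control (median 15.39) and 12.97 to 15.62 in HMB tumors (median 14.43). It was at 14.97 to 16.79 with anti-PD1 (median 15.61) and at 14.45 to 16.80 with anti-PD1 + HMB (median 16.02). H2-DMb1 has a close paralog, H2-DMb2, and how far their probes tell them apart is not given in the sources used here. H2-DMa, the alpha chain, lay near the background level, so its position relative to that level differed between groups. It was above background in 5 of 6 control tumors, 1 of 7 HMB tumors, 6 of 6 anti-PD1 tumors and 7 of 7 anti-PD1 + HMB tumors. The background level is that of each array, so these counts depend on it as well. HMB tumor 6, at 11.18, did not exceed its level, while anti-PD1 tumor 3, at 11.08, and anti-PD1 + HMB tumor 6, at 11.13, exceeded theirs. H2-DMa was at 10.30 to 13.38 in control (median 11.72) and at 9.12 to 12.21 in HMB tumors (median 10.59). It was at 11.08 to 13.97 with anti-PD1 (median 12.33) and at 11.13 to 13.75 with anti-PD1 + HMB (median 12.97). Only HMB tumor 7 lay above background in its group, and the lowest anti-PD1 + HMB tumor lay above 5 of the 7 HMB tumors.

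Ciita was above background in 3 of 26 tumors, 1 of the anti-PD1 group and 2 of the anti-PD1 + HMB group. It was at 7.96 to 10.22 in control (median 9.76) and at 6.43 to 10.03 in HMB tumors (median 8.33). It was at 9.09 to 11.59 with anti-PD1 (median 9.76) and at 8.35 to 11.63 with anti-PD1 + HMB (median 10.31). Its values were therefore closer to the background than those of the chain genes, and differences between them are less certain. The array reads 1 value for Ciita and does not separate its cell type-specific promoters.

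**Figure D1:**
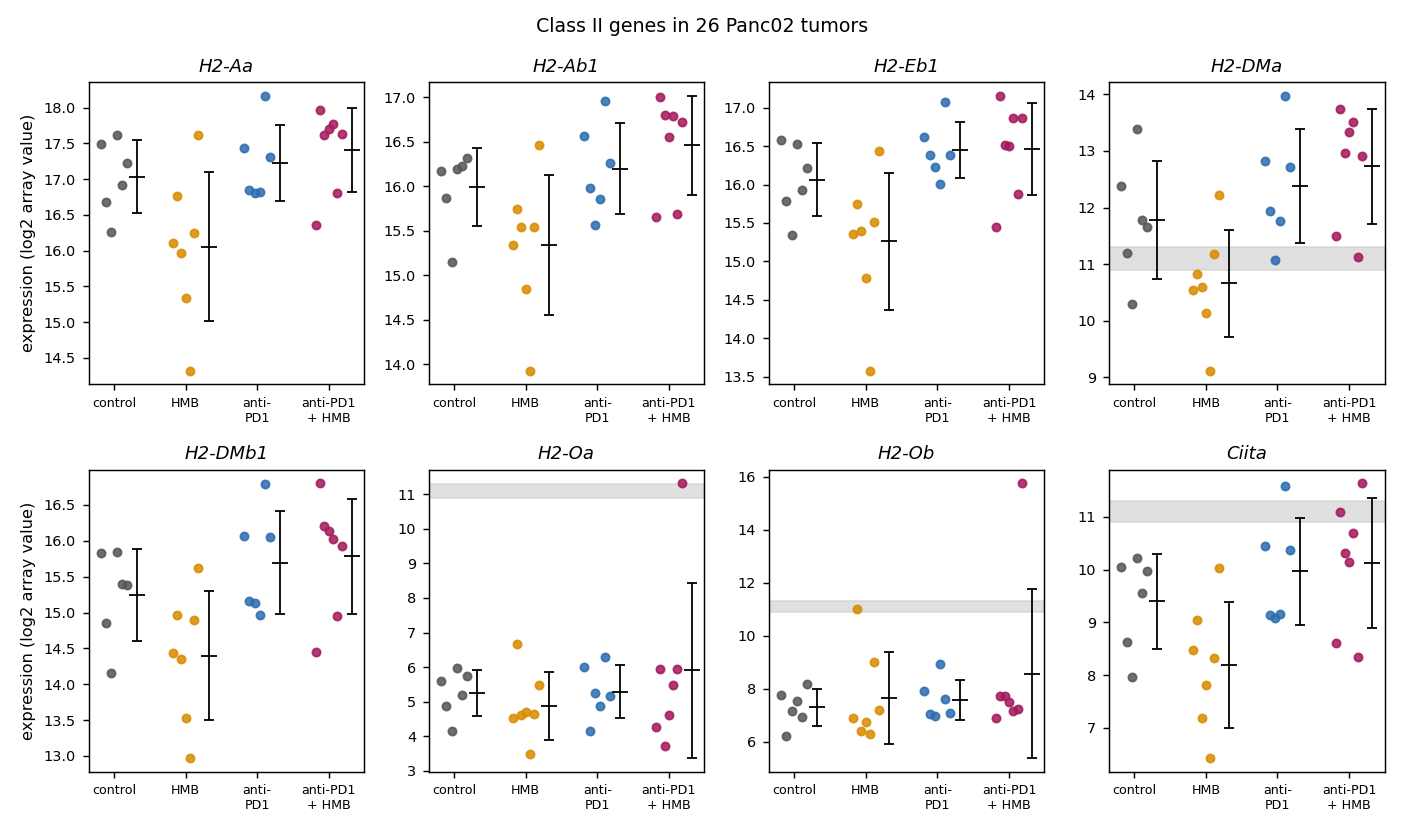
Expression of the 8 measured class II genes in 26 tumors, with 1 point per tumor on the log2 scale of the array, by treatment group. Each black bar is the group mean and its SD, grey bands are the range over arrays of the background level (10.9 to 11.3), vertical scales differ between genes, and for 7 of 8 genes the lowest group mean is that of the HMB tumors.

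The H2-DO genes followed the others less closely than those followed each other, and lay mostly below background. H2-Oa, the alpha chain of the H2-DM inhibitor, was above background in 1 of 26 tumors, anti-PD1 + HMB tumor 7, at 11.31. Without that tumor its values lay between 3.48 and 6.68, and the next highest was HMB tumor 2. H2-Ob, the beta chain, was at 15.74 in the same anti-PD1 + HMB tumor and at 11.00 in HMB tumor 2. The other values of H2-Ob lay between 6.20 and 9.02, below background. The H2-DO genes were thus measurable in 1 tumor, and differences between their group means mostly compare values below background.

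In the means of 7 genes the groups came in 1 order, HMB, control, anti-PD1 and anti-PD1 + HMB from lowest to highest. H2-Ob was the exception, with control lowest, followed by anti-PD1, HMB and anti-PD1 + HMB. Neighbors in this order mostly did not differ beyond their spread. The gap exceeded the larger SD only between HMB and control for H2-DMa (1.12 against an SD of 1.04) and Ciita (1.21 against 1.19). For each of these genes the ranges of every pair of groups overlapped. How often ranges overlap over all genes was not computed, so this is a description only.

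HMB was compared with control to ask what the supplement did without immunotherapy. Across all 19505 genes 0 were called by limma at an adjusted p of 0.05 (0%), so 0 class II genes were called. Of the 8 class II genes 7 had lower means with HMB (52.5% of all genes), and 5 of 8 were lower at an unadjusted p under 0.05, beside 3.79% of all genes. The median difference of the 8 genes was -0.83, against -0.01 over all genes. These genes vary together, so the count is not 5 separate results. H2-Aa had a difference of -0.98 (SE 0.38, 95% interval -1.76 to -0.20, limma adjusted p = 0.686), a level 1.97-fold lower. Ciita was at -1.21 (SE 0.57, -2.38 to -0.03) and H2-DMa at -1.12 (SE 0.52, -2.20 to -0.05), with limma adjusted p of 0.709 each. H2-DMb1 was at -0.85 (SE 0.41), H2-Eb1 at -0.81 (SE 0.33) and H2-Ab1 at -0.65 (SE 0.32), the last with an interval that reached 0.00. H2-Oa was at -0.38 (SE 0.78) and H2-Ob at 0.36 (SE 1.01). The count of 5 changed to between 1 and 3 without any 1 of HMB tumors 1, 3, 4 and 5 or control tumors 1, 4, 5 and 6. With the skeletal muscle score as a covariate, and by the methods' unpaired test, it was 0.

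HMB tumor 5 was the lowest of all 26 tumors in 7 of the 8 genes. The same tumor had the highest skeletal muscle score of all tumors (7.31, a mean log2 value of muscle genes relative to their mean over tumors) and the lowest macrophage score (-0.92). Without it the differences of H2-Aa, H2-Eb1 and Ciita between HMB and control were -0.69, -0.53 and -0.91. The part of muscle tissue in these values was not tested beyond these fits. The next highest muscle scores were those of anti-PD1 + HMB tumors 4 (6.56) and 6 (5.62). Their mean values of H2-Aa, H2-Ab1, H2-Eb1, H2-DMa, H2-DMb1 and Ciita, relative to the 26 tumors, were 0.82 and -0.45. The 10 measured muscle genes summed to log2 levels of 11.05 to 12.87 in control, 11.98 to 18.68 with HMB, 12.00 to 12.84 with anti-PD1 and 10.90 to 18.04 with both, and Tnnc2 was above background in no tumor. Leukocyte genes were also lower with HMB in 8 of 8 (52.5% of all genes), with a median difference of -0.48. Of these, 0 had an unadjusted p under 0.05, beside 3.79% of all genes. Their summed level was 16.62 to 17.56 in control, 15.62 to 17.28 with HMB, 16.57 to 17.85 with anti-PD1 and 16.71 to 18.62 with both. Epithelial genes were higher with HMB in 8 of 8 (median 1.05), while 52.5% of all genes were lower. Of the 8 epithelial genes, 4 had an unadjusted p under 0.05, beside 612 of 19505 genes that were higher at that level. Esrp1 was at 2.67 (SE 0.76) and Krt19 at 2.31 (SE 0.79). The summed level of the epithelial genes was 15.42 to 16.04 in control, 15.17 to 17.64 with HMB, 15.67 to 16.66 with anti-PD1 and 14.14 to 16.25 with both. With anti-PD1 alone, Esrp1 was also above control at 2.50 (SE 0.79) and Krt19 at 2.13 (SE 0.82). Of the epithelial genes only Cdh1 was lower there, at -0.35. The part of leukocyte and epithelial genes in the class II values was not tested.

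Anti-PD1 was compared with control to ask what checkpoint blockade did alone. By limma 0 genes were called (0%), and 0 of 8 class II genes had an unadjusted p under 0.05, beside 2.41% of all genes that were higher and 3.59% that were lower at that level. All 8 had higher means (49.2% of all genes), with a median difference of 0.34 against -0.01 over all genes. The largest were those of H2-DMa at 0.60 (95% interval -0.52 to 1.72) and Ciita at 0.57 (-0.66 to 1.79). H2-Aa was at 0.20 and H2-Ab1 at 0.21. For all 8 genes the 95% interval held 0, and the intervals do not show that the groups were alike.

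Anti-PD1 + HMB was compared with each other group. Against control, 0 genes were called by limma (0%), and 0 of 8 class II genes had an unadjusted p under 0.05 (3.42% of all genes higher and 4.71% lower). All 8 means were higher (46.9% of all genes), with a median of 0.59 against -0.02 over all genes, and H2-DMa was at 0.95 (SE 0.52, -0.13 to 2.02). The median was 0.38 without control tumor 3, and 0.38 with 7 of 8 higher without anti-PD1 + HMB tumor 7. The mean for H2-Ob, at 1.27 (SE 1.01), was 0.07 without anti-PD1 + HMB tumor 7, and that of H2-Oa changed from 0.65 to -0.25. Against anti-PD1 alone, 0 genes were called (0%), 0 of 8 class II genes had an unadjusted p under 0.05 (1.85% of all genes higher and 2.33% lower), and all 8 means were higher (48% of all genes), with a median difference of 0.22. Without anti-PD1 + HMB tumor 7, 4 were higher and 4 lower, with a median of 0.00. The median was 0.13 without anti-PD1 + HMB tumor 2 and 0.09 without anti-PD1 tumor 3, and it was 0.40, 0.42 and 0.45 without anti-PD1 + HMB tumor 1, anti-PD1 + HMB tumor 6 and anti-PD1 tumor 5. H2-Aa differed by 0.18 (-0.60 to 0.96) and H2-Eb1 by 0.01 (-0.68 to 0.69).

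The widest difference was that between anti-PD1 + HMB and HMB alone. By limma 0 of 19505 genes were called (0%), with class II adjusted p from 0.218 to 0.849. Of the 8 class II genes, 6 were higher at an unadjusted p under 0.05, beside 4.71% of all genes, and the other 2, H2-Oa and H2-Ob, had higher means as well (48.4% of all genes). The median of the 8 genes was 1.28 against -0.01 over all genes. H2-DMa differed by 2.07 (SE 0.50, 95% interval 1.04 to 3.11, limma adjusted p = 0.218), and Ciita by 1.93 (SE 0.55, limma adjusted p = 0.249). No fold is given for these genes, since H2-DMa was above background in 1 of 7 HMB tumors and Ciita in 0 of 7 HMB and 2 of 7 anti-PD1 + HMB tumors. H2-DMb1 was 2.62-fold higher (1.39, SE 0.39), H2-Aa 2.56-fold (1.36, SE 0.36), H2-Eb1 2.29-fold (1.2, SE 0.32) and H2-Ab1 2.17-fold (1.12, SE 0.30). For these 6 genes the unadjusted p stayed under 0.05 with each of the 14 tumors of the groups left out in turn, with limma adjusted p of 0.0836 to 0.49. H2-Ob was at 0.91 (SE 0.97) and became -0.28 without anti-PD1 + HMB tumor 7. All 8 leukocyte genes were higher in this comparison at an unadjusted p under 0.05 (median 0.87), and 10 of 11 T cell genes (median 1.82). Of the T cell genes, 0 of 11 were above background on average with HMB or in control and 2 of 11 with anti-PD1 or with both, and Cd3d, Cd28, Cd5 and Cd6 were above it in no tumor. Their summed level was 10.34 to 12.66 in control, 10.84 to 12.95 with HMB, 11.95 to 14.44 with anti-PD1 and 12.19 to 15.81 with both. The epithelial genes had lower means than with HMB alone in 8 of 8, with Krt19 at -2.51 (SE 0.76). The part of these genes in the class II values was not tested.

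**Figure D2:**
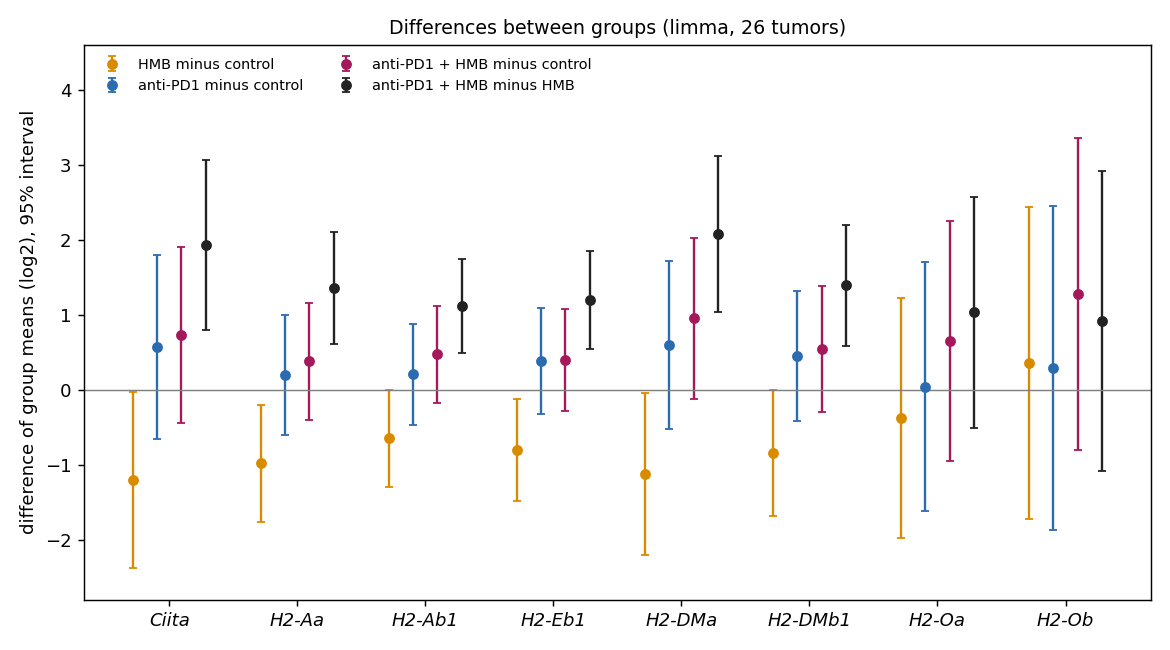
Differences between group means for the 8 class II genes on the log2 scale (vertical axis), with 95% intervals from a limma fit of 26 tumors, for 4 comparisons in colors. For 6 genes the interval of anti-PD1 + HMB minus HMB lies above 0, and the intervals of anti-PD1 minus control and of anti-PD1 + HMB minus control hold 0 for all 8.

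Whether the difference made by HMB itself depended on anti-PD1 was asked with the interaction. By limma 0 genes were called (0%). The interaction was above 0 for all 8 class II genes (50.7% of all genes), with a median of 0.97 against 0.01 over all genes, and 1 of 8 had an unadjusted p under 0.05, beside 2.61% of all genes. That gene was H2-Aa at 1.16 (SE 0.53, 0.06 to 2.26, limma adjusted p = 0.884). H2-DMa was at 1.47 (SE 0.74) and Ciita at 1.36 (SE 0.81). The count at an unadjusted p under 0.05 ranged from 0 to 5 with 1 tumor left out. It was 5 without anti-PD1 + HMB tumor 1 or HMB tumor 7, 4 without anti-PD1 tumor 5 or anti-PD1 + HMB tumor 6, 3 without control tumor 3, and 2 without anti-PD1 tumor 1, control tumor 2 or HMB tumor 2. It was 0 without control tumors 1, 4 or 6, anti-PD1 tumors 2, 3 or 4, HMB tumors 3, 4 or 5, or anti-PD1 + HMB tumors 2, 3, 4, 5 or 7.

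Across the 26 tumors 6 of the genes varied as a block. Among H2-Aa, H2-Ab1, H2-Eb1, H2-DMa, H2-DMb1 and Ciita, the 15 pairwise correlations had a Pearson's r of 0.92 to 0.98 (median 0.94). The points are tumors that share the array and the treatment groups, and r is a description of the likeness of the genes. H2-Oa and H2-Ob had an r of 0.39 to 0.59 and of 0.22 to 0.42 with these 6. Between themselves they had an r of 0.85, which was 0.48 without anti-PD1 + HMB tumor 7 and 0.30 without HMB tumor 2 as well. Without both tumors the r with the block was 0.58 to 0.66 for H2-Oa and 0.39 to 0.43 for H2-Ob, so H2-Oa was then more like the block than like H2-Ob.

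**Figure D3:**
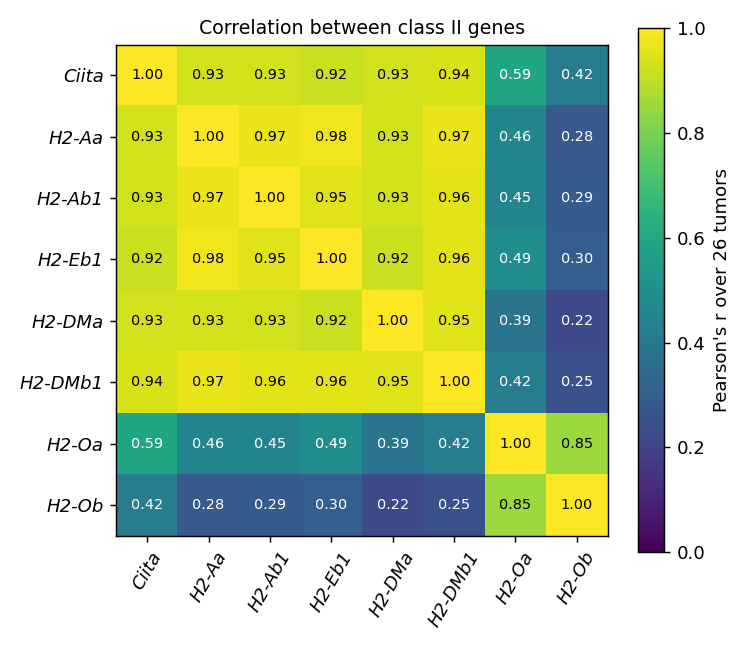
Pearson's r between class II genes across 26 tumors, printed in each cell and shown by color from 0 to 1. The block of 6 genes has values of 0.92 to 0.98, and H2-Oa and H2-Ob stand outside it.

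Ciita was then set against each of the other 7 genes. With H2-Aa it had an r of 0.93 and a Spearman's rho of 0.95 over 26 tumors (permutation p = 1e-05 for each, the smallest that 100000 permutations give, and adjusted p = 1e-05 over the 7 relations). Without HMB tumor 5 and anti-PD1 + HMB tumor 7, the tumors farthest from the median of Ciita, r was 0.94. After each group's mean was subtracted it was 0.90. H2-Ab1, H2-Eb1, H2-DMa and H2-DMb1 had an r of 0.92 to 0.94 with Ciita and of 0.88 to 0.90 within groups. The relation was therefore present among tumors of the same treatment. With H2-Oa the r was 0.59 (rho 0.58, permutation adjusted p = 0.0012), and 0.47 without the same tumors. By group the r with H2-Oa was 0.98 in control, 0.75 in HMB, 0.82 in anti-PD1 and 0.53 in anti-PD1 + HMB tumors. With H2-Ob it was 0.42 over all tumors (rho 0.53, permutation adjusted p = 0.0295). Without HMB tumor 5 and anti-PD1 + HMB tumor 7 it was 0.17 (permutation p = 0.45). Within groups it was 0.46, and it was also about as large without HMB tumor 2 and anti-PD1 + HMB tumor 7, the tumors highest in H2-Ob, as given above. Without anti-PD1 + HMB tumor 7 alone, H2-Ob had an r of 0.15 to 0.26 with the 6 genes of the block. By group the r of Ciita with H2-Ob was 0.63 in control, 0.49 in HMB, -0.02 in anti-PD1 and 0.60 in anti-PD1 + HMB tumors.

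**Figure D4:**
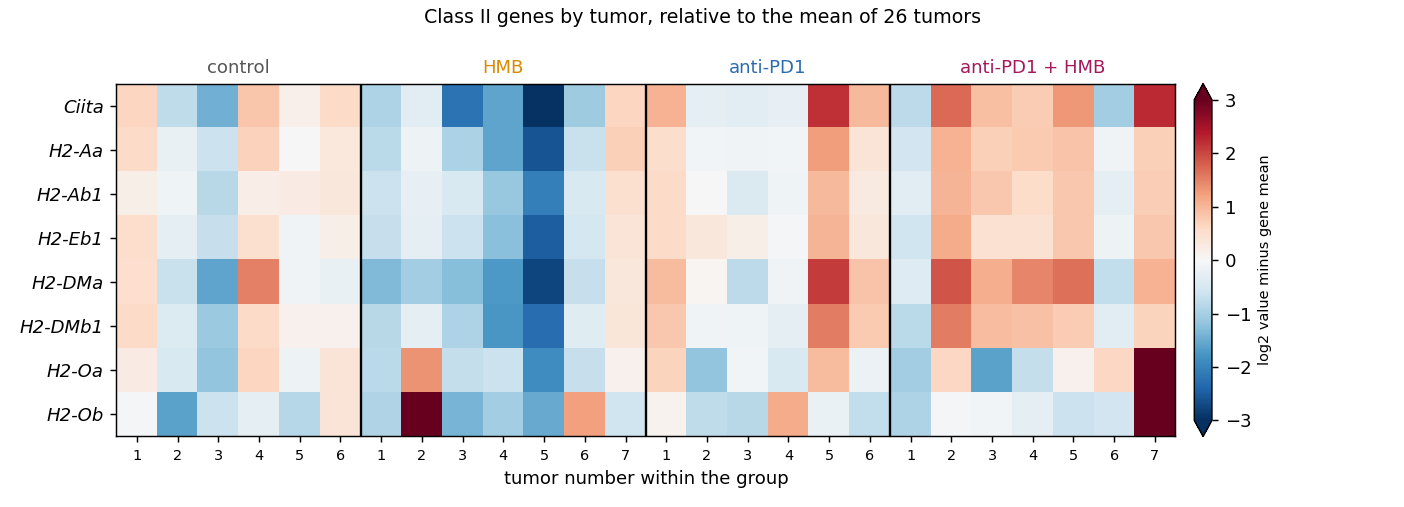
Log2 value of each class II gene in each tumor minus the mean of that gene over 26 tumors, with tumors as columns ordered by group and number and genes as rows. HMB tumor 5 has the lowest value of 7 of the 8 genes, and the dark red cells of H2-Ob are HMB tumor 2 and anti-PD1 + HMB tumor 7 (colors end at -3 and 3).

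The genes of the class II-expressing cells and of the interferon-gamma response were set beside the members as scores, the mean over a list of each gene's log2 value minus its mean over tumors. These relations to single genes were chosen after the values had been seen. With the mean of all 8 class II genes, the leukocyte score had an r of 0.94 and the T cell score of 0.92, and without HMB tumor 5 and anti-PD1 + HMB tumor 7 these were 0.88 and 0.87. The dendritic cell score had an r of 0.84 with that mean, and the interferon-gamma axis score of 0.75 (0.30 within the anti-PD1 + HMB group). The B and plasma cell score had an r of 0.55 and the macrophage score of 0.35. Without the 2 tumors farthest from the median of each score these values were, in order, 0.66, 0.64, 0.18 and -0.11. The skeletal muscle score had an r of -0.27 with the same mean, and -0.07 without HMB tumor 5 and anti-PD1 + HMB tumor 4. For the adipocyte score it was 0.18, and -0.20 without HMB tumor 2 and anti-PD1 + HMB tumor 7. By group the B and plasma cell r ran from -0.77 (control) to 0.83 (anti-PD1 + HMB). The macrophage r ran from -0.65 (anti-PD1 + HMB) to 0.79 (HMB). By gene, the interferon-gamma axis score had an r of 0.89 to 0.93 with the 6 genes of the block, and of 0.85 to 0.91 without HMB tumors 4 and 5. With H2-Oa its r was 0.24 (rho 0.42) and with H2-Ob 0.05 (rho 0.39). By group the r with H2-Oa was 0.82 in control, 0.72 in HMB, 0.81 in anti-PD1 and -0.24 in anti-PD1 + HMB tumors. With H2-Ob it was 0.62, 0.36, -0.07 and -0.23 in the same order. The dendritic cell score had an r of 0.59 to 0.82 with the 8 genes, the highest being that of H2-Oa, and of 0.32 to 0.67 without HMB tumor 5 and anti-PD1 + HMB tumor 7. Of its genes, 9 of 12 were above background in no tumor, among them Zbtb46, Flt3 and Xcr1. The macrophage score had an r of 0.40 to 0.63 with the 6 genes, which became 0.04 to 0.28 without HMB tumors 4 and 5. The macrophage genes summed to log2 levels of 17.76 to 18.31 in control, 16.95 to 18.30 with HMB, 17.74 to 18.21 with anti-PD1 and 17.80 to 18.32 with both, so their levels overlapped between all groups.

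The B and plasma cell genes were highest in the 2 tumors that were highest in H2-Oa and H2-Ob. Anti-PD1 tumor 4 and HMB tumor 6, which came next in these genes, had H2-Ob at 8.92 and 9.02. Their H2-Oa values of 4.88 and 4.65 were below its median of 5.18 over all tumors. The B and plasma cell score was 6.99 in anti-PD1 + HMB tumor 7, 2.42 in HMB tumor 2, 1.27 in anti-PD1 tumor 4 and 0.93 in HMB tumor 6, and between -1.11 and -0.12 in the other tumors. Anti-PD1 + HMB tumor 7 and HMB tumor 2 were also highest in the adipocyte score (6.49 and 4.70). The former was highest in the T cell (3.68), dendritic cell (1.80) and leukocyte (1.55) scores as well. Its epithelial score was the lowest (-2.09), its macrophage score was -0.58, and its array weight was the lowest (0.26). In anti-PD1 + HMB tumor 7, 7 of 11 measured B cell genes were above background, with Cd79a, a chain of the B cell receptor complex, at 14.99, Pax5, the B lineage factor, at 12.90 and Ms4a1, which encodes CD20, at 12.77. In each of the other 25 tumors 0 of 11 were above background, and Fcer2a, Fcrla, Mzb1 and Derl3 were above it in no tumor. The summed level of the 11 genes was 7.49 to 8.07 in control, 6.94 to 11.56 with HMB, 7.20 to 10.14 with anti-PD1 and 7.13 to 16.24 with both. H2-Ob had an r of 0.96 with this score (rho 0.52), and still 0.69 without HMB tumor 2 and anti-PD1 + HMB tumor 7. H2-Oa had an r of 0.84, which was 0.12 without them. The other 6 genes had an r of 0.12 to 0.32 with it, and of 0.08 to 0.14 without the same tumors, so H2-Oa then lay within their range. With this score as a covariate the difference between anti-PD1 + HMB and control was 0.17 for H2-Ob instead of 1.27, and -0.10 for H2-Oa instead of 0.65. The same tumor, anti-PD1 + HMB tumor 7, was highest in the score, in H2-Ob and in H2-Oa. These differences were therefore bound to shrink under this covariate, which was chosen after the values were seen. The source of the H2-DO values was not tested.

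**Figure D5:**
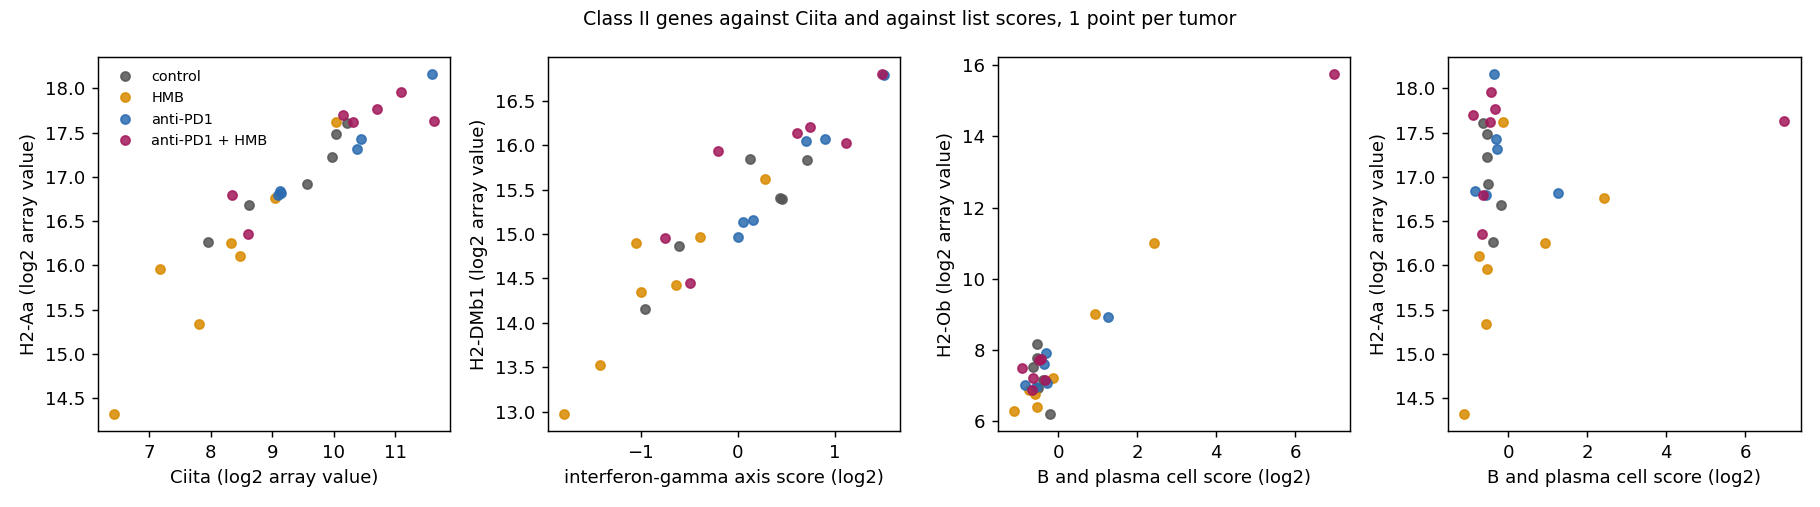
From left to right, H2-Aa against Ciita, H2-DMb1 against the interferon-gamma axis score, and H2-Ob and H2-Aa against the B and plasma cell score, with 1 point per tumor and all axes on the log2 scale. The first pair of panels have an r of 0.93 each, the tumor at a B and plasma cell score of 6.99 has an H2-Ob value of 15.74, and H2-Aa in the same tumor lies within the range of the others.

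The rest of the class II machinery, a list of processing, trafficking and regulatory genes of which 20 of 22 were measured, was less uniform than the members. Between HMB and control 15 were lower (52.5% of all genes) and 5 higher, with a median of -0.20. Beside 3.79% of all genes, 2 of the 20 were lower at an unadjusted p under 0.05. These were Ctss, cathepsin S, which trims the invariant chain, at -0.62 (SE 0.17, limma adjusted p = 0.686), and Nfya, a subunit of NF-Y, at -0.42 (SE 0.15). Ctss was at 16.01 to 16.58 in control and 14.92 to 16.20 in HMB tumors. Rfx5, the DNA-binding subunit of RFX, was at -0.53 (SE 0.26), and it was above background in 1 of 26 tumors. Ctsl, cathepsin L, was at 0.37 (SE 0.18), in the other direction. Nfya was also lower than control with anti-PD1 (-0.40) and with both (-0.40), and Rfx5 was at -0.23 and -0.09.

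Between anti-PD1 + HMB and HMB, 15 of the 20 were higher (48.4% of all genes), with a median of 0.20. Of these, 6 had an unadjusted p under 0.05, beside 4.71% of all genes. Ctss was at 0.62 (SE 0.16, limma adjusted p = 0.23), and Ifi30, the thiol reductase that opens disulfide bonds of endosomal antigens, was at 0.58 (SE 0.21). H2-DMb2, the second beta chain gene of H2-DM, was at 2.32 (SE 0.72), and Marchf1, a ubiquitin ligase that takes class II molecules off the surface, at 1.15 (SE 0.44). H2-Eb2, at 2.0 (SE 0.80), and Lag3, a T cell receptor for class II, at 0.91 (SE 0.39), were above background in no tumor. Ctss and Ifi30 were above background in every tumor, as were 4 of the class II genes. H2-DMb2 was also 1.89 (SE 0.75) higher than control with anti-PD1 + HMB. For Ifi30 the interaction was 0.66 (SE 0.30, limma adjusted p = 0.884).

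The interferon-gamma axis list, with 14 of 15 genes measured, was compared in the same way. Between HMB and control 14 of 14 were lower (52.5% of all genes), with a median of -0.88. Of these, 6 had an unadjusted p under 0.05, beside 3.79% of all genes. Gbp2, an interferon-induced GTPase, was at -1.92 and Cxcl9, a chemokine induced by interferon-gamma, at -1.41. Between anti-PD1 + HMB and HMB 14 of 14 were higher (48.4% of all genes), with a median of 1.15. Of these, 8 had an unadjusted p under 0.05 (4.71% of all genes), and Gbp2 was at 2.12. Between anti-PD1 + HMB and anti-PD1 10 of 14 were lower (median -0.36), where 48% of all genes were higher. The 6 genes of the class II block had means that were 0.01 (H2-Eb1) to 0.35 (H2-DMa) higher. Each of their 95% intervals held 0, and some of them changed sign under the alternatives given below. Ifng itself was above background in no tumor, at 4.91 to 7.40 in control, 4.48 to 6.00 with HMB, 5.74 to 9.23 with anti-PD1 and 5.43 to 8.15 with both. The class I presentation genes, of which 15 of 16 were measured, were lower with HMB than in control in 13 of 15 (52.5% of all genes, median -0.58). Of these, 8 had an unadjusted p under 0.05, beside 3.79% of all genes. With both, 12 of the 15 were higher than with HMB (48.4% of all genes, median 0.93). All 12 had an unadjusted p under 0.05, beside 4.71% of all genes. By limma 0 genes of these lists were called in any comparison.

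The 10 genes outside the members whose pattern over the 26 tumors was most like the mean of the 8 class II genes were Cd8b1 (r = 0.950), Itga4 (0.938), H2-DMb2 (0.936), Cd52 (0.936), Cyfip2 (0.928), Ccl5 (0.927), Cd8a (0.921), Prkch (0.918), Atp8a1 (0.917) and 9930111J21Rik2 (0.917). Cd8a and Cd8b1 encode the chains of the CD8 co-receptor, and Ccl5 is a chemokine of activated T cells. The most alike genes were different when the H2-DO genes were left out, a choice made after their values were seen. The mean of the block of 6 was then most like Psmb9 (r = 0.967), a subunit of the immunoproteasome, followed by AW112010 (0.963), H2-K1 (0.947), a class I heavy chain, H2-T23 (0.943) and Tap1 (0.942), the peptide transporter. H2-Aa alone was most like Cxcl9 among genes outside the members (r = 0.944). H2-Ob was most like Fcer2a (r = 0.955), which encodes the low-affinity IgE receptor of B cells, a gene of the B cell list that was above background in no tumor.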

How the data were processed

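RNA of 26 whole tumors was hybridized to Clariom S arrays, 1 per tumor. The authors deposited 1 processed value per probe set and tumor, here taken as log2. For the log base, the background correction, the normalization and the genome build of the array, the sources used here give nothing. No further normalization was applied. Precision is limited by the number of arrays. Of 28846 probe sets, 19572 had 1 gene symbol, 0 had several and 9274 had none (5222 of them negative controls). Where a gene had more than 1 probe set (55 genes), that of highest mean was taken, giving 19505 genes with no filter on low values. Groups came from the sample titles. The labels give 1 tumor per sample, and 0 pairs of arrays held identical values.

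Group means were fitted to all 26 tumors with limma 3.58.1 in R 4.3.3, for 5 differences and the interaction, with two-sided p and Benjamini-Hochberg adjustment over all genes at 0.05. An unadjusted p under 0.05 is given as a description. Correlations were computed in Python 3.11.15 with scipy 1.17.1 and 100000 permutations. The limma fits of the 5 differences were tested on simulated data. The interaction, the correlations and the promoter search were not part of that test. Promoter sequences were those of RefSeq, build GRCm38.p6. All class II genes were named, with at most the 4 genes of smallest p of any other list, the 10 genes most like the class II mean, and Ctss, Ifi30, Rfx5 and Ifng. The B cell genes, H2-Eb2, Lag3 and the genes most like single members were named after their values were seen. The class II genes and the lists were chosen with earlier results of these data known. The alternatives were quantile normalization, a filter on the dimmest 25% of genes, a variance trend, robust variances, array weights, averaged probe sets, the replicate number as a block, a fit restricted to the groups of a comparison, muscle and macrophage scores as covariates, the methods' unpaired test and each tumor left out. A B cell covariate and a fit without the tumors highest in B cell genes were added after seeing the data.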

Additional observations from a re-analysis of the deposited data

Results flagged for a closer look

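H2-Oa in anti-PD1 + HMB tumor 7 stood apart from the 6 other tumors of its group, with a gap to the next tumor that took up 0.71 of the range of the group. Its log2 value of 11.31 was 5.35 above the next tumor, and the group median was 5.47. H2-Ob in the same tumor had a gap of 0.90 of the range, with a value of 15.74 that was 8.0 above the next tumor and a group median of 7.50. These were the 2 flags among 32 sets of 1 gene in 1 group, and chance flags about 1 in 20 such sets.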

How the results depend on the processing

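Class II genes called by limma numbered 0 in every comparison under every alternative run. Of 608 values of single class II genes under alternatives other than leaving out 1 tumor, 22 turned in direction, and of 728 with 1 tumor left out, 25 did, all of them uncalled. The cause was not tested. Between HMB and control the count of class II genes at an unadjusted p under 0.05, which was 5, was 2 with array weights, 2 with the macrophage score, 0 with the muscle score and 0 by the methods' test, and 1 to 6 with 1 tumor left out. Between anti-PD1 + HMB and control it was 1 with array weights or the muscle score instead of 0, and 0 to 1 with 1 tumor left out. For the interaction it was 2 with a variance trend or the muscle score and 0 with array weights instead of 1, and 0 to 5 with 1 tumor left out. Between anti-PD1 + HMB and HMB it was 6 with any 1 tumor left out. Genes called among all genes, which numbered 0, were 1 between anti-PD1 and control and 2 between anti-PD1 + HMB and HMB without the 2 tumors highest in B cell genes, and 1 between anti-PD1 + HMB and HMB and 1 in the interaction with the B cell score as a covariate. With 1 tumor left out they ranged from 0 to 4 between anti-PD1 + HMB and HMB, the 4 without anti-PD1 + HMB tumor 1, and from 0 to 1 in the interaction, the 1 without HMB tumor 3.

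Directions turned mostly in the H2-DO genes and between the groups with anti-PD1. With the B cell score as a covariate, H2-Ob was at -0.21 between HMB and control and at -0.03 between anti-PD1 and control, H2-Oa at -0.18 between anti-PD1 and control and at -0.10 between anti-PD1 + HMB and control, and H2-Eb1 at -0.06 and Ciita at -0.01 between anti-PD1 + HMB and anti-PD1. Without the 2 tumors highest in B cell genes, H2-Ob was at -0.20 between HMB and control and at -0.02 in the interaction, H2-Oa at -0.25 between anti-PD1 + HMB and control, and H2-Eb1, H2-Oa, H2-Ob and Ciita at -0.06, -0.29, -0.21 and -0.09 between anti-PD1 + HMB and anti-PD1. With quantile normalization H2-Oa was at -0.01 between anti-PD1 and control and H2-Eb1 at -0.01 between anti-PD1 + HMB and anti-PD1. With array weights H2-Oa was at -0.03 between anti-PD1 + HMB and anti-PD1 and H2-Ob at -0.27 in the interaction, and with the muscle score H2-Oa was at 0.04 between HMB and control.

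With the replicate number as a block H2-Ob was at -0.20 between HMB and control, and H2-Eb1, H2-DMb1 and Ciita at -0.12, -0.03 and -0.12 between anti-PD1 + HMB and anti-PD1, where 5 genes were higher and 3 lower (median 0.07). Same-numbered tumors had correlations of -0.24 to 0.32 over 37 pairs. Of these, 12 were over 0.1 and 9 were highest with their own number. No chance rate was computed for these counts, so they cannot decide whether the numbers pair the tumors. With 1 tumor left out, H2-Ob ranged from -0.20 to 0.59 between HMB and control, from -0.28 to 1.47 between anti-PD1 + HMB and HMB, and from -0.57 to 1.18 in the interaction. H2-Oa ranged from -0.18 to 0.27 between anti-PD1 and control and from -0.25 to 1.01 between anti-PD1 + HMB and control. Between anti-PD1 + HMB and anti-PD1, H2-Eb1 ranged from -0.11 to 0.18, H2-DMb1 from -0.08 to 0.31, H2-Oa from -0.29 to 0.97, H2-Ob from -0.21 to 1.26 and Ciita from -0.09 to 0.48. Signal over background limits H2-Oa, H2-Ob and Ciita, most of whose values lay below the background level, and H2-DMa, of which 7 of 26 did not exceed it.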
